A study of Mus musculus with 6 samples.

Results

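Early erythroid genes are described here through 5 genes, Car2, Tfrc, Aqp1, Klf1 and Ces2g, each measured by exactly 1 of the 14610 probe sets tested (10366 genes have at least 1 probe set with a single symbol). All probe sets annotated to exactly 1 of these symbols were taken. The genes had been picked with their differences between the groups in view, so those differences are given as a description and carry no test. The material was LKS-Slam cells, a sorted bone marrow fraction highly enriched for hematopoietic stem cells, and each of 6 bone marrow samples was hybridised to 1 Affymetrix array. The 3 arrays labelled Zeb2-KO came from mice with floxed Zeb2 and Mx1-Cre, given as Zeb2Δ/Δ Mx1-Cre, and the 3 control arrays from mice given as C57Bl/6 WT. All mice, WT included, received pIC (polyinosinic-polycytidylic acid) at 6 weeks of age and were sampled 8 weeks later, at 14 weeks. Mx1-Cre is driven by an interferon-inducible promoter and is therefore not restricted to blood cells. The labels do not say whether WT mice carried Cre or which part of Zeb2 was floxed.

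Red cells arise from stem cells through progenitors that they share with megakaryocytes. Klf1 is a zinc-finger transcription factor that switches on genes of globin, haem and the red cell membrane. Tfrc (CD71) is the receptor that brings transferrin-bound iron into dividing cells and above all into erythroblasts, which need the iron for haem. Car2 is the cytosolic carbonic anhydrase that interconverts carbon dioxide and bicarbonate, abundant in red cells and also in osteoclasts. Aqp1 is the water channel of the red cell membrane and of endothelium. Ces2g belongs to the carboxylesterases, enzymes that cleave ester bonds in lipids and drugs, and no erythroid role is stated for it here.

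All 5 genes had a higher mean in Zeb2-KO-labelled arrays than in WT, from 3.30-fold for Car2 to 1.36-fold for Klf1. Tfrc lay 1.95-fold, Ces2g 1.80-fold and Aqp1 1.70-fold higher. Values are log2 of the deposited intensities, differences are Zeb2-KO minus WT, and standard errors (SE) come from a linear model (limma) fitted to all tested probe sets. For 4 of the 5 genes, all but Aqp1, the highest WT array lay below the lowest Zeb2-KO-labelled one. Over all 14610 probe sets, 6.9% were higher without overlap. Because the genes were picked from this same contrast, nothing is read from that count.

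The arrays had limits that touch every value below. Zeb2 itself was higher in Zeb2-KO-labelled arrays, at 7.79, 9.13 and 8.96 against 6.58, 7.51 and 7.34 in WT, so every direction rests on the labels alone (difference 1.48, limma adjusted p = 0.581). Its probe set would not check the deletion if it lay outside the floxed part. WT replicate 1 stood apart, with a mean correlation of 0.841 with the other arrays, where the other 5 arrays had 0.886 to 0.908. The interquartile range of log2 values was 1.83 to 2.40 in Zeb2-KO-labelled arrays and 1.59 to 2.03 in WT. Dim probe sets lay lower and bright ones higher, with a median difference of -0.26 in the lowest quartile of mean intensity, -0.20 in the second, 0.067 in the third and 0.27 in the highest, and -0.089 over all. Klf1 fell in the second of these quartiles, Tfrc, Aqp1 and Ces2g in the third and Car2 in the highest. The table has no detection calls, so it does not tell which dim probe sets were above background. In bulk samples such as these, fewer cells of a type and less RNA per cell cannot be told apart.

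Of the sorting markers, Kit, the stem cell factor receptor, stood at 10.14, 10.17 and 10.23 in Zeb2-KO-labelled arrays and at 8.998, 10.06 and 9.89 in WT. The gene of the SLAM family marker CD150, Slamf1, stood at 8.31, 9.01 and 8.30 in Zeb2-KO-labelled arrays and at 5.76, 8.02 and 7.94 in WT. Both were lowest in WT replicate 1. Cd48, which the SLAM gate selects against, stood at 6.79, 6.86 and 5.72 in Zeb2-KO-labelled arrays and at 7.19, 7.70 and 7.55 in WT, lower without overlap (difference -1.02, limma adjusted p = 0.656). Of other surface genes, Cd34 lay at -0.69 with overlapping groups, at 6.32, 7.90 and 7.69 in Zeb2-KO-labelled arrays and 8.07, 8.09 and 7.82 in WT. Zeb2-KO replicate 1 stood far below the other Zeb2-KO arrays for Cd34. Procr lay at -0.45. Alas2, the first enzyme of haem synthesis in erythroblasts, and the globin genes Hbb-y, of embryonic cells, and Hbq1b were measured, and their groups overlapped. Of 11 red cell membrane and blood group genes measured, 2 (Rhag and Kel) were higher without overlap, against 6.9% of all probe sets. Gata1 and Epor were not analysed here.

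The upstream sequences of 4 of the 5 genes are shown because these genes lie higher in the same arrays and because Klf1 and Zeb2 are both DNA-binding factors. They are from RefSeq, build GRCm38.p6, 5′ to 3′, and end at the base before the start of the gene record, which for Ces2g lies within the 250 bases searched. Capitals mark letters of the motifs searched on both strands, namely GATA (the letters AGATAA, with T also taken in first and G in last place), the CACCC box that Klf1-type factors bind, CACCTG, an E-box that Zeb factors bind, and CCAAT.
Klf1 (chr8:84901732-84901981, + strand): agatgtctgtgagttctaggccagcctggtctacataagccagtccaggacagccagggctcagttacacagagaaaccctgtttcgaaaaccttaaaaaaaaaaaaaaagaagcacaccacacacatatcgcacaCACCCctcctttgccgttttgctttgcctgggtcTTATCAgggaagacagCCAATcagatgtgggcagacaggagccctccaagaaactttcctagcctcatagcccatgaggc
Aqp1 (chr6:55336049-55336298, + strand): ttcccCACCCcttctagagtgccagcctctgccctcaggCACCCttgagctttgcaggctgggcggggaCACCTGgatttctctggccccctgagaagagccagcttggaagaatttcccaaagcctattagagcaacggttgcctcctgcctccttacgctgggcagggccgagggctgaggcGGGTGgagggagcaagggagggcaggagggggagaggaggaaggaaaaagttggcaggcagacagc
Tfrc (chr16:32608646-32608895, + strand): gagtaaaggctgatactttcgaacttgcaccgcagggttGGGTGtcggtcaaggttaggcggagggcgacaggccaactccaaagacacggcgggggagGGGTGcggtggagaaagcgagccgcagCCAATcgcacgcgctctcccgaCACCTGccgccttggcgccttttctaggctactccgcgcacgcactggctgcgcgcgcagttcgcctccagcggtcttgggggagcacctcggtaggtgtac
Ces2g (chr8:104961468-104961595, + strand): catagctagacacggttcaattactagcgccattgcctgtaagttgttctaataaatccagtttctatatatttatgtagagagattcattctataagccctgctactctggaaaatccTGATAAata

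Counting back from the start site of each RefSeq window, the 250 bases before Klf1 held a GATA match on the reverse strand with its first base at -80, a CCAAT match at -64 and a CACCC match at -114. Aqp1 held 3 CACCC matches, at -245, -211 and -66, and a CACCTG match at -181. Tfrc, in the more upstream of its 2 RefSeq windows, held CACCC matches at -211 and -151, CCAAT at -124 and CACCTG at -102. Ces2g held GATA matches at -131 and -38 and a CCAAT match at -96, and no CACCC or CACCTG. These letters are common. Among 32851 windows of 250 bases, CACCC stood in 52.0%, CCAAT in 33.8%, GATA in 26.5% and CACCTG in 17.2%. A match describes the letters and does not show that a factor binds there.

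Klf1, the transcription factor, had the smallest difference and, in Zeb2-KO-labelled arrays, the tightest values of the 5 genes. It stood at 6.50, 6.47 and 6.55 in Zeb2-KO-labelled arrays and at 6.37, 5.85 and 5.95 in WT (probe set 10573457). The groups did not overlap, but the lowest Zeb2-KO array lay only 0.094 above WT replicate 1. Means were 6.51 ± 0.044 in Zeb2-KO-labelled arrays and 6.06 ± 0.28 in WT (SD, n = 3 each), a difference of 0.45 (SE 0.28). That difference was smaller than the range of 0.52 within WT.

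Tfrc, the transferrin receptor, stood at 7.52, 8.07 and 7.81 in Zeb2-KO-labelled arrays and at 6.71, 7.50 and 6.29 in WT (probe set 10435075). Zeb2-KO replicate 1 and WT replicate 2 were 0.016 apart, so the groups touched without crossing. Means were 7.80 ± 0.28 in Zeb2-KO-labelled arrays and 6.83 ± 0.61 in WT, a difference of 0.96 (SE 0.35). The WT arrays alone spanned 1.21. When the array's interquartile range was added to the model, the Tfrc difference was 0.53 (SE 0.34).

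Car2, the carbonic anhydrase, stood at 11.34, 11.22 and 11.08 in Zeb2-KO-labelled arrays and at 8.63, 9.94 and 9.91 in WT (probe set 10490923). All Zeb2-KO arrays were high and lay within 0.26 of each other, and the lowest of them was 1.15 above the highest WT array. Means were 11.21 ± 0.13 in Zeb2-KO-labelled arrays and 9.49 ± 0.75 in WT, a difference of 1.72 (SE 0.37). WT replicate 1 accounted for most of the spread in WT, and without it the difference was 1.29. On the linear scale Car2 intensities were 2589, 2389 and 2170 in Zeb2-KO-labelled arrays and 396, 981 and 964 in WT.

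Aqp1, the water channel, was the gene whose groups overlapped. It stood at 7.48, 7.83 and 7.26 in Zeb2-KO-labelled arrays and at 7.32, 6.24 and 6.72 in WT (probe set 10538459). WT replicate 1 lay above Zeb2-KO replicate 3 and the other 2 WT arrays lay below all Zeb2-KO arrays. Means were 7.52 ± 0.29 in Zeb2-KO-labelled arrays and 6.76 ± 0.54 in WT, a difference of 0.76 (SE 0.34). The difference was 0.50 without WT replicate 2, the lowest array.

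Ces2g, the carboxylesterase, stood at 6.81, 7.77 and 7.09 in Zeb2-KO-labelled arrays and at 6.68, 6.37 and 6.08 in WT (probe set 10574572). The groups did not overlap, with 0.13 between Zeb2-KO replicate 1 and WT replicate 1, and Zeb2-KO replicate 2 stood highest. Means were 7.22 ± 0.49 in Zeb2-KO-labelled arrays and 6.38 ± 0.30 in WT, a difference of 0.85 (SE 0.33). Unlike the other 4 genes, Ces2g spread more among the arrays labelled Zeb2-KO, over 0.96, than among WT arrays, over 0.60.

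**Figure D1:**
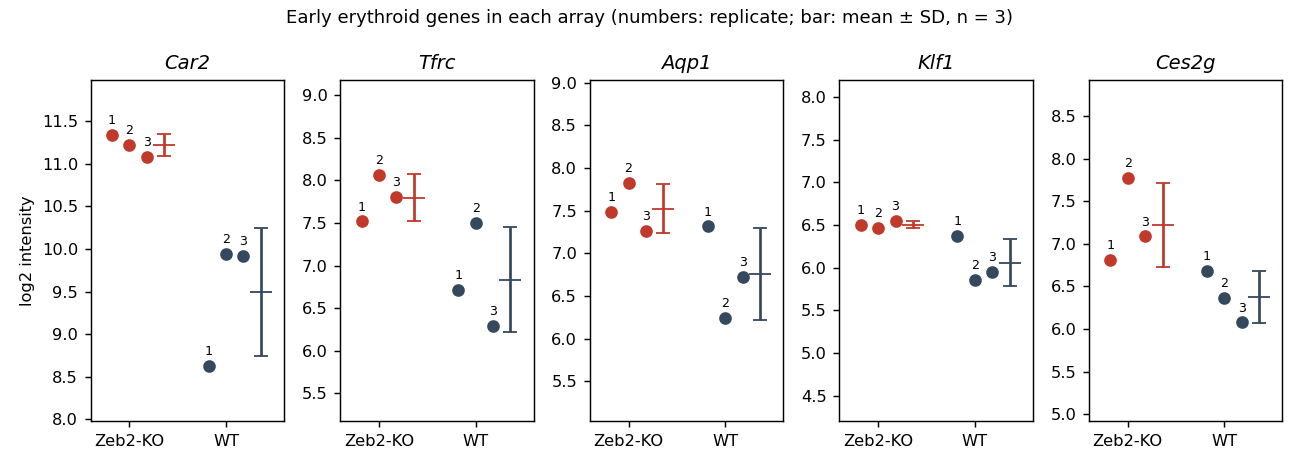
Log2 intensity (vertical axes, each spanning the same number of log2 units) of the 5 genes in each array labelled Zeb2-KO (red, left) and WT (dark, right). Points are arrays numbered by replicate and bars are means with SD of 3 arrays. Car2 shows the widest gap, 1.15 between the groups, and Aqp1 is the 1 gene whose groups overlap.

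Within the groups the 5 genes did not vary as 1 set. WT replicate 1 was 0.86 below the WT mean for Car2 but 0.56 above it for Aqp1, 0.31 above it for Klf1 and 0.31 above it for Ces2g. WT replicate 2 was 0.67 above the WT mean for Tfrc and 0.44 above it for Car2, with Aqp1 lower there by 0.52 (a deviation of -0.52). Among the arrays labelled Zeb2-KO, replicate 2 held the highest Tfrc, Aqp1 and Ces2g.

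Over the 6 arrays the correlations between the 5 genes were all positive, from 0.42 (Tfrc with Aqp1) to 0.90 (Aqp1 with Klf1), and they include the difference between the groups from which the genes were picked. After the group means were removed, Aqp1 and Klf1 still correlated at 0.76, Aqp1 and Ces2g at 0.58 and Tfrc and Ces2g at 0.49. Car2 then correlated at -0.98 with Klf1, at -0.75 with Aqp1 and at -0.48 with Ces2g, and at 0.14 with Tfrc. These 6 deviations per gene share arrays and their scaling. The largest deviation was in WT replicate 1 for Car2, Aqp1 and Klf1, in WT replicate 2 for Tfrc and in Zeb2-KO replicate 2 for Ces2g. The correlations are descriptions of 6 arrays.

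**Figure D2:**
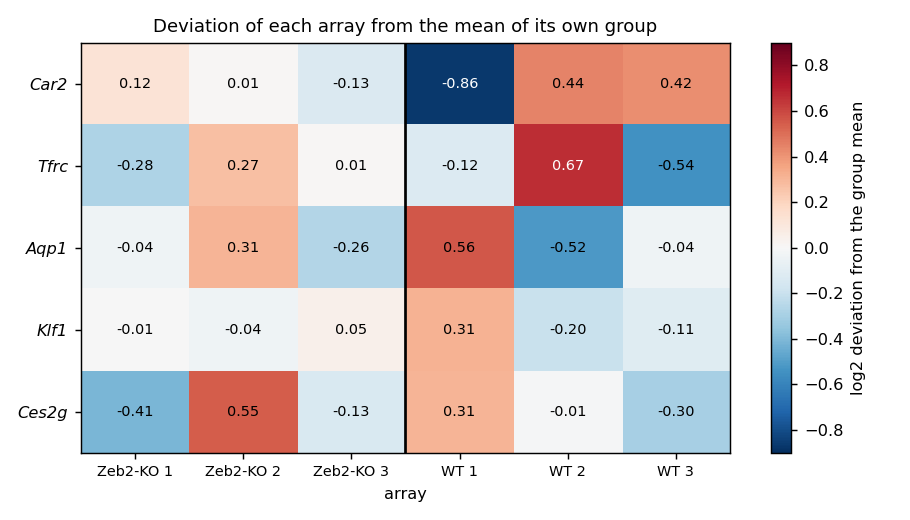
Deviation (log2, colour and printed number) of each array from the mean of its own group for the 5 genes (rows), with the arrays labelled Zeb2-KO left of the line and WT right of it. Car2 is lowest in WT replicate 1, at -0.86, where Aqp1, Klf1 and Ces2g lie above the WT mean.

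The genes with the nearest pattern to each member were taken as the 3 with the highest Pearson correlation over the 6 arrays among the 5791 single-symbol probe sets in the brighter part of the table (mean not below the median of all tested). For Klf1 these were Itga2b, the platelet integrin subunit CD41 (r = 0.967, and 0.900 after the group means were removed), the mitochondrial protease gene Htra2 (0.962 and 0.884) and Uqcc2, an assembly factor of respiratory complex III (0.953 and 0.894). For Tfrc they were Anxa5, a phospholipid-binding annexin (0.994 and 0.998), Dph3 (0.994 and 0.990) and Fth1, the heavy chain of the iron store ferritin (0.990 and 0.974). For Car2 they were Gpatch8 (0.987 and 0.952), the lectin gene Clec2d (0.978 and 0.906) and the transcription elongation factor gene Supt6 (0.976 and 0.953).

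For Aqp1 the nearest were Oas1a, an interferon-induced oligoadenylate synthetase gene (0.977 and 0.958), the GTPase gene Rab9 (0.963 and 0.919) and Tnpo2, a nuclear import receptor gene (0.962 and 0.921). For Ces2g they were Ube2f, a neddylation enzyme gene (0.998 and 0.999), the actin regulator gene Nckap1 (0.987 and 0.975) and Clca3a2 (0.987 and 0.971). No gene was nearest to more than 1 member. With 6 arrays and 5791 probe sets, high correlations are found for any gene, and limma passed none of these 15 genes (adjusted p from 0.561 to 0.673).

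Erythroid genes other than the 5 were counted in 8 lists by function with 152 different symbols, of which 75 were measured. No erythroid gene of the 75 passed limma's adjusted p of 0.05, where 0.0137% of all probe sets did. At an unadjusted p under 0.05 there were 6, or 8.0%, against 7.02% of all probe sets. Of the 6, 5 were higher and 1 was lower, against 5.69% and 1.33% of all probe sets. That share is close to the background. In direction, 52 of the 75 lay higher (69.3%, against 44.6% of all probe sets), with a median difference of 0.22 against -0.089. Without overlap, 10 were higher (13.3%) and 2 lower, against 6.9% and 6.26% of all probe sets. The 75 genes were mostly bright, 26 in the third and 28 in the highest quartile of mean intensity. There the median of all probe sets was 0.067 and 0.27 and that of the erythroid genes 0.30 and 0.36. In these quartiles 54.2% and 72.9% of all probe sets lay higher, so 44.6% is a low comparison, and 20 of 26 and 23 of 28 erythroid genes did. In the first and second quartiles 4 of 9 and 5 of 12 did, against 19.2% and 32.1% of all probe sets. With quantile normalization 45 of 75 lay higher (median 0.090), against 42.4% of all probe sets (median -0.075). With array spread in the model 50 of 75 lay higher (median 0.081), against 49.0% of all probe sets (median -0.0067).

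Iron genes had a median difference of 0.31, with 10 of 16 measured members higher (44.6% of all probe sets were). Of the 16, 1 was at an unadjusted p under 0.05 (7.02% of all probe sets were) and none passed the adjusted threshold. The 1 was Flvcr1, the haem exporter, at 5.13, 5.30 and 5.49 in Zeb2-KO-labelled arrays and 4.80, 4.55 and 4.46 in WT (difference 0.70, limma adjusted p = 0.662). Flvcr1 lay in the dimmest quartile of mean intensity, which the filter on dim probe sets removed. Ireb2, an iron sensor that stabilises the Tfrc transcript when iron is scarce, lay at 8.19 ± 0.23 in Zeb2-KO-labelled arrays and 7.43 ± 0.60 in WT (difference 0.76, limma adjusted p = 0.673, and 0.28 with array spread in the model). The ferritin chains did not overlap between the groups, with Fth1 at 11.82 ± 0.11 in Zeb2-KO-labelled arrays and 11.38 ± 0.28 in WT, and Ftl1 at 8.17 ± 0.026 in Zeb2-KO-labelled arrays and 7.80 ± 0.25 in WT. The lowest Zeb2-KO and highest WT arrays lay close, at 11.72 and 11.70 for Fth1 and at 8.14 and 8.09 for Ftl1. The ferritin differences were 0.44 for Fth1 (0.23 with array spread in the model) and 0.38 for Ftl1 (0.16 with quantile normalization). Abcg2, a porphyrin and drug exporter, lay at 0.65, the mitochondrial iron importer gene Slc25a37 at 0.42, and Aco1, the other iron sensor, at -0.29. The list median was 0.013 without WT replicate 1 and -0.041 without Zeb2-KO replicate 2.

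Haem synthesis genes had a median difference of 0.14, with 7 of 9 higher (44.6% of all probe sets were) and none at an unadjusted p under 0.05. Leaving out WT replicate 3 gave a median of -0.039, Zeb2-KO replicate 2 one of 0.040 and Zeb2-KO replicate 1 one of 0.36, and it was 0.051 with array spread in the model. Ppox (0.55), Alad (0.35) and Urod (0.33), enzymes of the pathway, had limma adjusted p of 0.673 to 0.688, and the housekeeping enzyme Alas1 lay at -0.31. Alas2, its erythroid counterpart, stood at 6.30, 6.66 and 6.77 in Zeb2-KO-labelled arrays and at 6.55, 6.04 and 6.74 in WT (difference 0.13). The globin genes Hbb-y, of embryonic cells, and Hbq1b lay at -0.26 and 0.059. None of these 3 separated the groups.

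Genes of the red cell membrane and blood groups had a median of 0.25, with 8 of 11 higher (44.6% of all probe sets were). Of the 8, 2 were at an unadjusted p under 0.05 (5.69% of all probe sets were higher at that p). The median was 0.091 without WT replicate 2 and 0.45 without Zeb2-KO replicate 1, and 0.15 with array spread in the model or with quantile normalization. Rhag, the Rh-associated glycoprotein of the erythroid membrane, stood at 6.26, 6.23 and 5.16 in Zeb2-KO-labelled arrays and at 4.54, 4.28 and 4.27 in WT. The groups did not overlap, and the difference of 1.52 (SE 0.35) or 2.86-fold had a limma adjusted p of 0.517. It kept a size of 1.33 to 1.88 when any single array was left out. Rhag lay in the dimmest quartile of mean intensity, which the filter on dim probe sets removed, so that alternative gives no value for it. Tmod1, which caps actin filaments of the membrane skeleton, lay at 0.85 (0.56 without Zeb2-KO replicate 2 and 0.50 with array spread in the model), Kel, the Kell blood group protein, at 0.57 (0.27 without Zeb2-KO replicate 3) and Cd47 at 0.76, with 0.35 in its other probe set. Kel also lay in the dimmest quartile and was removed by the filter.

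Genes of red cell enzymes and maturation had a median of 0.32, with 11 of 15 higher (44.6% of all probe sets were). The median was 0.049 with array spread in the model, 0.18 with quantile normalization and 0.18 without Zeb2-KO replicate 2, and 0.58 without Zeb2-KO replicate 1. Nt5c3, a nucleotidase that clears pyrimidine nucleotides from maturing red cells, had the largest difference of the 75 genes. It stood at 8.44, 8.26 and 8.26 in Zeb2-KO-labelled arrays and at 5.36, 7.38 and 5.39 in WT, with WT replicate 2 apart from the other WT arrays. The difference was 2.27 (SE 0.48) or 4.84-fold, with a limma adjusted p of 0.407, and 2.94 with an adjusted p of 0.00474 without WT replicate 2. Adjusted p ran from 0.00474 to 0.978 over the alternatives. Riok3 (0.84), the glycolytic enzyme gene Hk1 (0.60, or 0.36 with quantile normalization) and the glutathione synthesis gene Gclm (0.88) came next by p (limma adjusted p = 0.673 for each).

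Transcription factors of the erythroid lineage lay at a median of 0.19, 9 of 11 being higher (44.6% of all probe sets were), with none at an unadjusted p under 0.05. Most of the 11 lay in the highest quartile of mean intensity, where 72.9% of all probe sets lay higher, with a median of 0.27. Cbfa2t3, counted as higher at 0.37, lay at -0.44 in its other probe set. The median of these 11 genes was 0.031 with quantile normalization, 0.098 with array spread in the model and 0.30 without Zeb2-KO replicate 1. Lmo2, a bridging protein of the complex that holds Gata1 and Tal1, stood at 9.99 ± 0.079 in Zeb2-KO-labelled arrays and 9.34 ± 0.47 in WT, without overlap (difference 0.64, limma adjusted p = 0.673). The Lmo2 difference was 0.42 without WT replicate 1 and 0.34 with array spread in the model. Gata2, which acts before Gata1 in the lineage, also did not overlap (difference 0.35, with 0.22 without WT replicate 3 and 0.12 with quantile normalization). Its groups nearly touched, with the lowest Zeb2-KO array at 7.95 and the highest WT array at 7.94. Gfi1b (0.19) and Nfe2 (0.42) overlapped. Klf3, a repressor of the same family as Klf1, lay at -0.77. Known Klf1 targets had a median of 0.42, with 8 of 9 higher (44.6% of all probe sets were), among them Klf8 (0.69), the cell cycle inhibitor gene Cdkn2c (0.59) and Kel (0.57). The 1 lower target was Klf3 (-0.77). Klf3, Bcl11a, E2f4, Kel, Slc25a37 and Alas2 also stand in other erythroid lists, so this list is not a separate set. The median of the Klf1 target list was 0.098 with array spread in the model and 0.15 without Zeb2-KO replicate 2.

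Erythropoietin signalling had a median of -0.15, with 3 of 8 higher (44.6% of all probe sets were). Its sign was not stable, at 0.025 with array spread in the model, 0.029 without WT replicate 1 and 0.045 with all probe sets of a gene averaged. Jak2, the kinase of the erythropoietin receptor, lay at 0.93 (0.19 with array spread in the model, 0.49 without Zeb2-KO replicate 2) and Ptpn6, a phosphatase that ends its signal, at -0.65. Ptpn6 stood at 8.87, 8.74 and 8.87 in Zeb2-KO-labelled arrays and at 9.68, 9.51 and 9.25 in WT, without overlap. Neither passed (limma adjusted p = 0.673 for each).

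**Figure D3:**
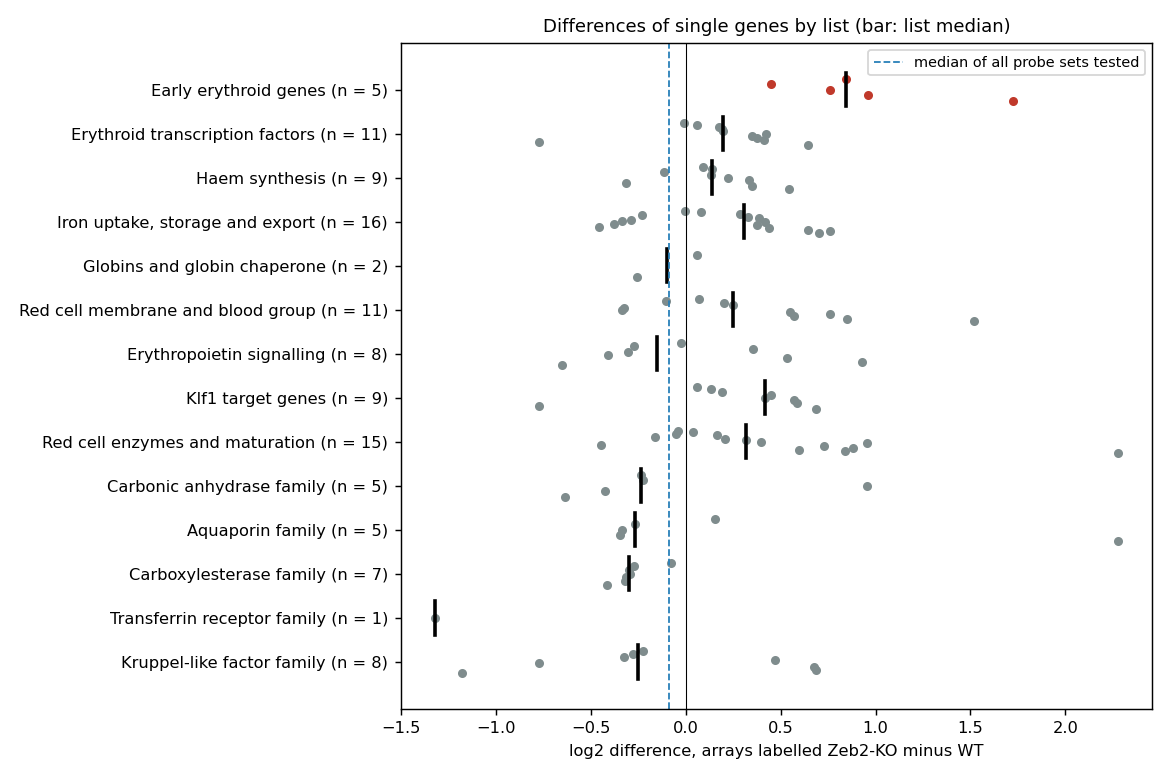
Log2 difference (horizontal axis, arrays labelled Zeb2-KO minus WT) of each gene, grouped by list (rows, with the number of measured genes). Points are genes, black bars list medians, and the dashed line the median of all probe sets, -0.089. The 5 early erythroid genes lie between 0.45 and 1.72, and Nt5c3 (2.27) and Aqp9 (2.28) lie farthest to the right.

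Paralogues of the 5 genes mostly did not share their direction. Of 5 other carbonic anhydrases measured, 4 lay lower and Car1 higher. Car1, an abundant carbonic anhydrase of red cells, stood at 5.47, 8.71 and 8.40 in Zeb2-KO-labelled arrays and at 7.44, 5.77 and 6.49 in WT. Among Zeb2-KO-labelled arrays it varied far more than Car2 did, and its difference of 0.96 (SE 0.74) depended on the Zeb2-KO replicate left out (1.98 without replicate 1, 0.52 without replicate 3 and 0.37 without replicate 2). It was 0.56 without WT replicate 2 and 0.28 with array spread in the model. Car5b (-0.64) and Car11 (-0.43) were lower without overlap. Car4, Car5a and Car5b lay in the dimmest quartile of probe sets, where 19.2% lay higher and the median difference was -0.26.

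All 7 other carboxylesterases measured lay lower, from -0.41 (Ces2b) to -0.076 (Ces1e), and 5 of them lay in the dimmest quartile of probe sets, whose median was -0.26. None of the 7 was at an unadjusted p under 0.05. Among 5 other aquaporins, Aqp9, a glycerol and water channel, stood at 8.75, 9.98 and 9.23 in Zeb2-KO-labelled arrays and at 6.80, 7.46 and 6.88 in WT, without overlap (difference 2.28, limma adjusted p = 0.187). The other 4 aquaporins lay between -0.34 and 0.16, with Aqp6 and Aqp11 in the dimmest quartile. Among 8 other Kruppel-like factors 3 lay higher, and Klf7 was the 1 at an unadjusted p under 0.05, at 7.26 ± 0.068 in Zeb2-KO-labelled arrays and 8.43 ± 0.29 in WT (difference -1.18, limma adjusted p = 0.536). Of the transferrin receptor family only Naaladl2 was measured, at -1.32 with overlapping groups. Probe sequences were not used here, and shared probes among near-identical carboxylesterases were not tested.

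Markers of other cell types that express some of the 5 genes moved in different directions. Of 14 megakaryocyte and platelet markers 13 lay higher, 8 without overlap, with a median difference of 0.84. Over all probe sets 44.6% lay higher, 6.9% were higher without overlap and 6.26% lower without overlap. Their summed intensity was 4683 to 8589 in Zeb2-KO-labelled arrays and 1957 to 3055 in WT, and Ppbp had the smallest p (3.28, limma adjusted p = 0.333). All 23 measured proliferation genes lay higher (median 0.55), with summed intensities of 7705 to 12576 in Zeb2-KO-labelled arrays and 4496 to 9246 in WT. Of 12 B cell markers all lay lower (median -0.83), with sums of 1145 to 2070 in Zeb2-KO-labelled arrays and 1872 to 3856 in WT. Their part in the values of the 5 genes was not tested.

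Markers of other cells that carry Car2 or Aqp1 had smaller median differences, at -0.20 for osteoclasts and -0.21 for endothelium. Of 8 osteoclast markers, a cell type with abundant Car2, 3 lay higher and 5 lower, with sums of 790 to 942 in Zeb2-KO-labelled arrays and 666 to 880 in WT. The brightest of the 8, Itgb3, weighs most in these sums and also stands in the megakaryocyte and platelet list. Itgb3 lay at 0.75 and was the 1 osteoclast marker at a limma unadjusted p under 0.05 (7.02% of all probe sets were). The osteoclast protease gene Ctsk lay at 0.13 and Acp5 at -0.39. Of 7 endothelial markers, a cell type with Aqp1, 1 lay higher, with sums of 423 to 542 in Zeb2-KO-labelled arrays and 544 to 588 in WT. These sums nearly touched, and the mean log2 values of the list overlapped, at 5.72 to 6.09 in Zeb2-KO-labelled arrays and 5.98 to 6.23 in WT. Flt4, Ptprb and Sox17 of this list lay in the dimmest quartile, whose median difference was -0.26. Of 6 macrophage markers 1 lay higher, with sums of 298 to 420 in Zeb2-KO-labelled arrays and 360 to 431 in WT. Of 6 mast cell and basophil markers 2 lay higher, with sums of 665 to 891 in Zeb2-KO-labelled arrays and 580 to 769 in WT. Granulocyte markers were 3 of 5 higher, T and NK cell markers 3 of 7 and stem cell and gate markers 8 of 15. Of 12 monocyte and dendritic cell markers 2 lay higher and 10 lower (median -0.37). Of these 12, 3 were lower without overlap, against 6.26% of all probe sets. No marker is listed at 0 in this table.

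**Figure D4:**
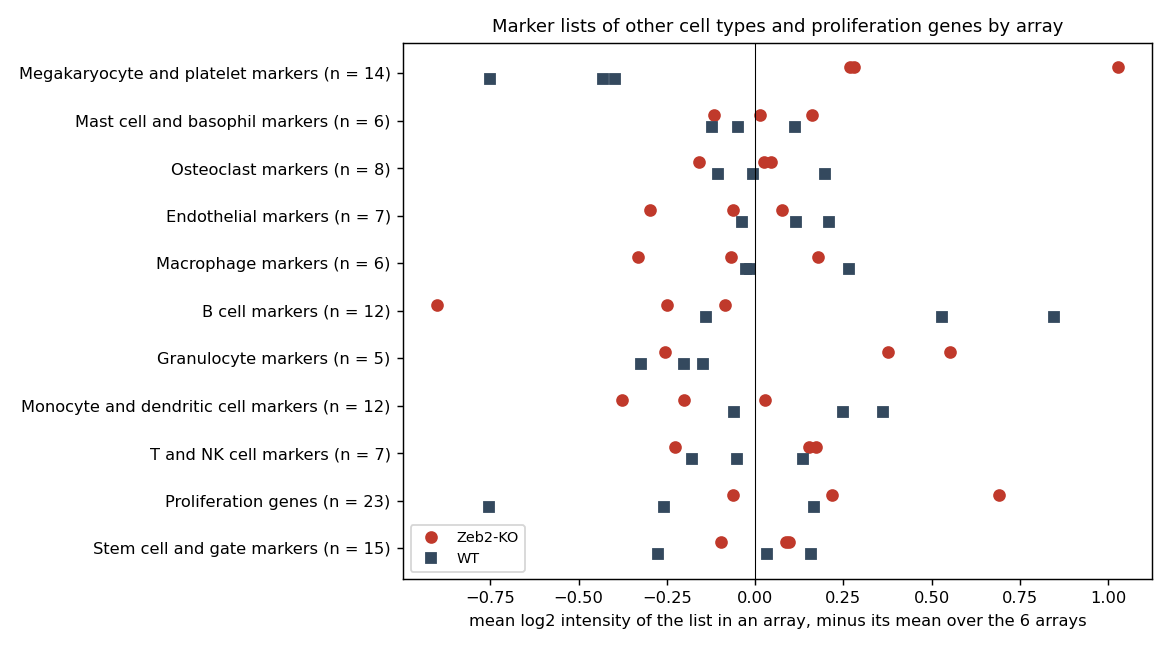
Mean log2 intensity of each marker list in each array, minus its mean over the 6 arrays (horizontal axis), by list (rows, with the number of measured genes), for arrays labelled Zeb2-KO (red circles, upper) and WT (dark squares, lower). The megakaryocyte and platelet list separates the groups, and the endothelial, osteoclast and mast cell lists overlap.

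The difference of each of the 5 genes stayed above 0 under every alternative run. Some alternatives, such as the replicate block, leave a difference unchanged by construction. Leaving out 1 array at a time gave 1.29 to 1.94 for Car2, 0.69 to 1.30 for Tfrc, 0.50 to 1.04 for Aqp1, 0.35 to 0.60 for Klf1 and 0.57 to 1.05 for Ces2g. Without WT replicate 1, the array that stood apart, the differences were 1.29 for Car2, 0.90 for Tfrc, 1.04 for Aqp1, 0.60 for Klf1 and 0.999 for Ces2g. The genes were picked for being higher, so a direction that holds is no independent support. Car2 kept the largest difference of the 5 in each of these settings.

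**Figure D5:**
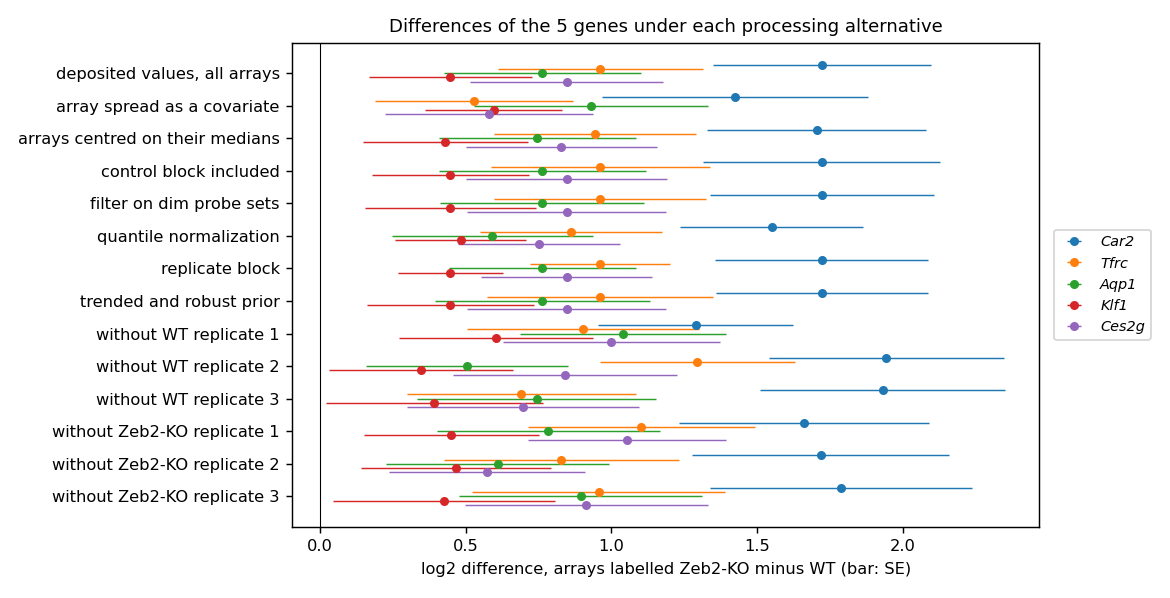
Log2 difference (horizontal axis, arrays labelled Zeb2-KO minus WT, bars SE) of the 5 genes (colours) under each processing alternative (rows). Car2 lies at 1.29 or above in every row, and Klf1 between 0.35 and 0.60.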

How the data were processed

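Total RNA of sorted cells was amplified and hybridised to Affymetrix arrays, per the labels' protocols. The deposited values are linear intensity values per probe set, made with RMA per the submitters' processing notes. The RMA version is not given in the sources used here. Of 20220 probe sets, 5610 with identifiers below the first annotated one were left out as controls, and log2 was taken of the other 14610. Of these, 11229 have 1 gene symbol and 766 several in the platform annotation.

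Groups come from sample titles. Differences were fitted with limma 3.58.1 under R 4.3.3 (eBayes without trend or robust setting) and adjusted by Benjamini-Hochberg over all 14610 probe sets (threshold 0.05). Lists used 1 probe set per gene, that with the highest mean. Named genes were the 5, Zeb2, up to 4 genes of each list by p, paralogues and the 3 nearest patterns, plus Kit, Slamf1 and some list members chosen after their values were seen. Members and lists were chosen with earlier results of these data known. The fit was tested on simulated data. Each p-value sets a difference against the spread between these samples, with 3 arrays per group. That spread is moderated by limma towards that of all probe sets (4 residual and 6.87 prior degrees of freedom). The labels call the samples of a group biological replicates and do not say how many mice each holds. Alternatives are listed in the closing section.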

Additional observations from a re-analysis of the deposited data

How the results depend on the processing

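Alternatives were quantile normalization, centring of arrays, the array spread (interquartile range) in the model, a trended and robust prior, the replicate number as a block, the control probe sets included, a filter on dim probe sets, all probe sets of a gene averaged, and each array left out. Each of the 5 genes has 1 probe set, so no other probe set could be tried for them. Their differences moved by less than the spread between replicates (1 SD, from 3 arrays per group) in all 13 alternatives each. Most of these could not have exceeded that spread, so nothing is read from that count. The control probe sets, the dim filter, the replicate block and the prior leave a difference unchanged by construction. Centring shifts every gene by the same amount. Leaving out 1 of 3 arrays cannot move a group mean by as much as that SD. Only quantile normalization and array spread in the model could have done so. With array spread in the model the Tfrc difference was 0.53, against 0.96 in the main fit. Single arrays left out gave 1.29 to 1.94 for Car2, 0.69 to 1.30 for Tfrc, 0.50 to 1.04 for Aqp1, 0.35 to 0.60 for Klf1 and 0.57 to 1.05 for Ces2g. The number of probe sets past the adjusted threshold was 2, and 1 with array spread in the model, 4 with the trended and robust prior, and 2 to 18 with 1 array left out. With the replicate block 0 passed and 2595 lay at an unadjusted p under 0.05, where the unpaired fit had 1025 and leaving out 1 array gave 537 to 1659. Deviations of same-numbered arrays from their group means correlated at 0.36, 0.41 and 0.047, the last below the 0.1 required to treat them as pairs. Every array correlated best with its own number, a hint from the data and not from the design. Erythroid genes past the adjusted threshold were 0, or 0 to 1 with 1 array left out (Nt5c3, without WT replicate 2). Those at an unadjusted p under 0.05 were 6 of 75, and 16 with the replicate block, 3 with the filter on dim probe sets and 2 to 15 with 1 array left out. The median of the 75 was 0.13 to 0.37 with 1 array left out.

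List medians moved as follows. Transcription factors lay at 0.031 with quantile normalization and 0.14 to 0.30 with 1 array left out. Iron genes lay at 0.050 with array spread in the model, 0.14 with quantile normalization, and -0.041 (without Zeb2-KO replicate 2) to 0.43 with 1 array left out. Haem synthesis lay between -0.039 (without WT replicate 3) and 0.36, membrane genes between 0.091 and 0.45, and red cell enzymes between 0.18 and 0.58, each with 1 array left out. Red cell enzymes lay at 0.049 with array spread in the model. Erythropoietin signalling lay at 0.025 with array spread in the model, 0.045 with all probe sets averaged, and -0.24 to 0.029 (without WT replicate 1) with 1 array left out. Klf1 targets lay at 0.098 with array spread in the model, 0.19 with the filter on dim probe sets and 0.15 to 0.47 with 1 array left out. The cause of these moves was not tested. The median of all probe sets lay between -0.11 and 0.051 over the settings. Without detection calls, signal over background cannot be given, which limits dim probe sets most.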
